A study of Mus musculus with 20 samples.

Results

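The 10 genes described here encode potassium channel subunits of the heart, and they were picked by name: the pore-forming subunits Kcnq1, Kcnh2 and Kcnd2, the inward rectifiers Kcnj2, Kcnj12, Kcnj3 and Kcnj5, the two-pore-domain channel Kcnk3, and the auxiliary subunits Kcne1 and Kcne3. Each symbol matched 1 gene of the 33495 in the deposited counts table, and all 10 passed the low-count filter in every comparison. RNA from embryonic hearts was sequenced in 20 libraries to ask how loss of the histone H3 lysine methyltransferase KMT2D changes cardiac gene expression. Kmt2d was deleted with 1 of 3 Cre drivers. Mesp1Cre acts in early mesodermal precursors, and 4 mutant and 4 control whole hearts were labelled E9.0, although the protocol text that all samples share names E11.5. Tnnt2::Cre acts in cardiomyocytes, and 3 mutant and 3 control whole hearts were taken at E11.5. Mef2cAHF::Cre acts in anterior heart field precursors, and the right ventricle with the outflow tract was taken at E11.5 from 3 embryos labelled mutant and 3 labelled control. Mutants carried Cre with Kmt2d fl/fl. Controls, called WT in the labels, carried Cre too, with 1 floxed copy (Kmt2d fl/+). Every embryo was C57BL/6 and had the mTmG/+ reporter, so the controls had lost a copy of Kmt2d in the Cre-expressing cells. The tissue was not sorted, and each library therefore also held cells that never expressed Cre.

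Potassium currents set the resting potential of a cardiomyocyte and end each action potential. Inward rectifiers of the Kir2 family hold the membrane near the potassium equilibrium between beats, G protein-gated rectifiers open on vagal stimulation of atrial and pacemaker cells, and the voltage-gated channels carry the transient outward and the rapid and slow delayed rectifier currents of repolarisation. KCNE proteins do not conduct by themselves but assemble with KCNQ1 and other alpha subunits and change their gating.

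Libraries held between 21727258 and 45341870 counts assigned to genes. Across the 24 pairs of libraries within a group, counts differed by 8.74 to 213 times the sampling variance, so no library was a copy of another. The 7 cardiomyocyte markers, Tnnt2 and Actc1 among them, summed to between 24936 and 59112 CPM (counts scaled to the size of the library) in all groups. Kmt2d, listed under its older symbol Mll2, averaged 133 ± 7.14 CPM (SD) over the 4 Mesp1Cre mutants and 156 ± 5.52 over the 4 controls (edgeR adjusted p = 0.0764). In Tnnt2::Cre the averages were 118 ± 4.27 over 3 mutants and 150 ± 20.8 over 3 controls (adjusted p = 0.327). In the Mef2cAHF::Cre line it went the other way, with 185 ± 3.72 CPM over the 3 libraries labelled mutant and 149 ± 5.71 over the 3 labelled control (adjusted p = 0.0359). In each line the groups did not overlap for Kmt2d, against 18.1%, 16.9% and 23.9% of all genes in Mesp1Cre, Tnnt2::Cre and Mef2cAHF::Cre. The paper reports a significant drop of the transcript by qRT-PCR in mutants of each line. Gene totals include exons outside the floxed part and single exons were not examined, so the level of Kmt2d does not settle the genotype. For the 6 libraries of the Mef2cAHF::Cre line the sample titles and the names of the table's value columns give opposite genotypes. A header line above the column names follows the titles. Groups are therefore named here as the titles label them, and each direction in this line is given under both readings. The Mef2cAHF::Cre effect on Kmt2d minus that of Tnnt2::Cre was 0.66 ± 0.12 by the titles (log2 ± SE, edgeR adjusted p = 0.00298). By the column names it was 0.03 ± 0.12. Nothing in the labels tells whether libraries of a group came from separate litters, so p-values measure the spread between these libraries.

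**Figure D1:**
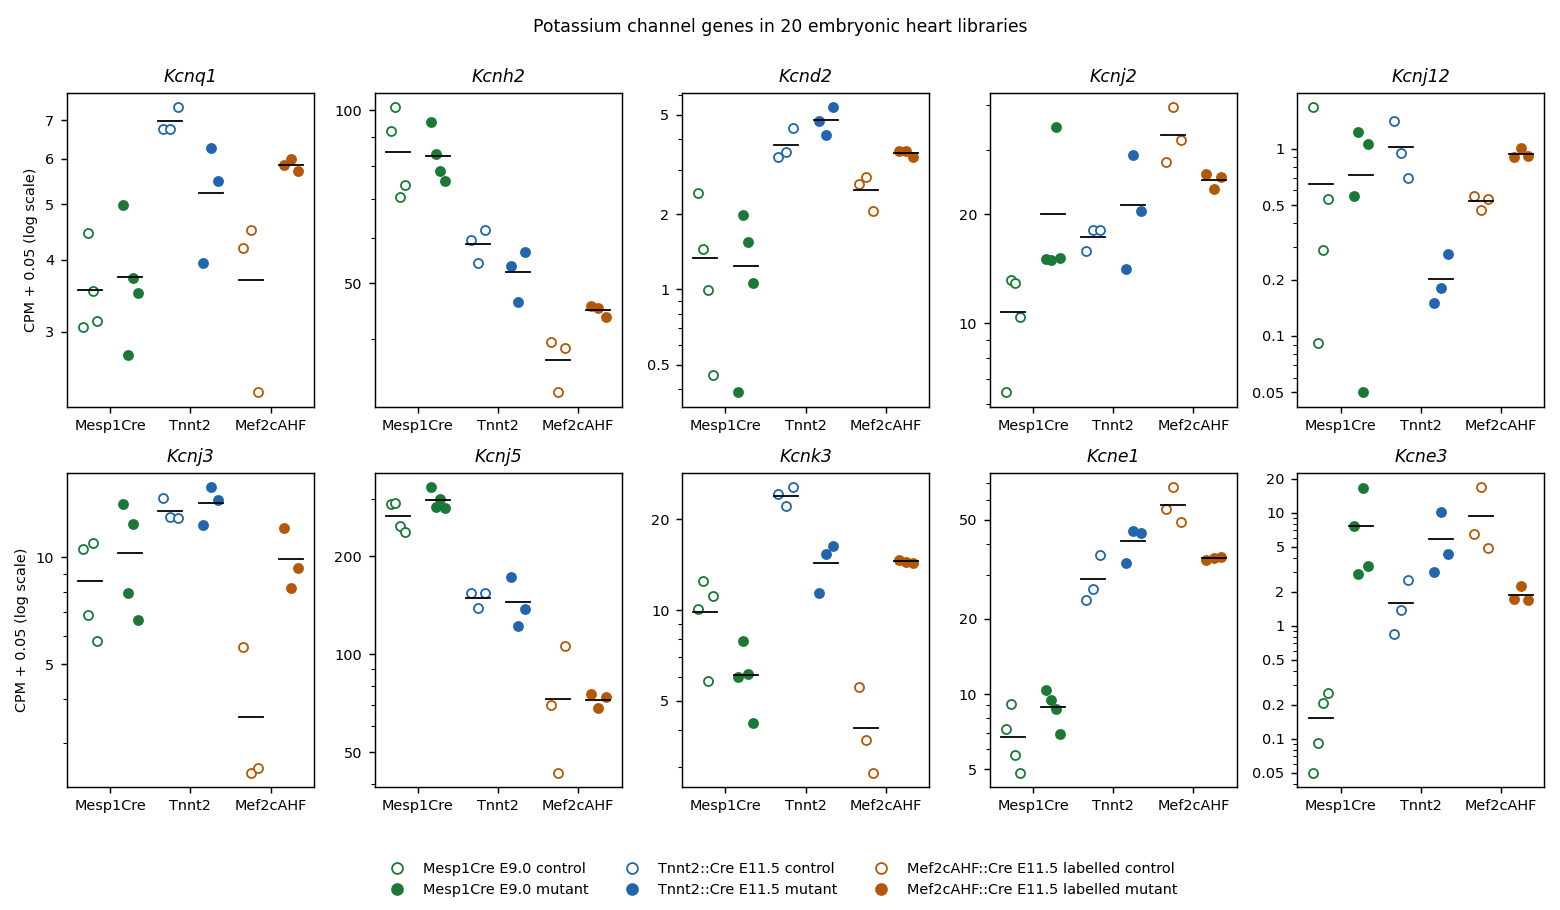
Library-scaled counts (CPM) of the 10 genes in each of the 20 libraries, on log axes with 0.05 CPM added; open circles are controls, filled circles mutants and black lines group means. Kcne3 in Mesp1Cre control hearts lies at or below 0.203 CPM, whereas the 4 mutant hearts lie between 2.80 and 16.5 CPM.

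Levels of different genes were compared as FPKM, which scales counts by transcript length. In E9.0 control hearts Kcnj5, a subunit of the acetylcholine-gated channel, was highest with 56.7 ± 5.07 FPKM (SD, n = 4). It was followed by Kcnh2, the alpha subunit of the rapid delayed rectifier, with 16.7 ± 2.61 FPKM. Both stood clear of all the others in every library. Kcnk3, Kcne1, Kcnj2, Kcnj3 and Kcnq1 came next, with means from 2.47 down to 1.09 FPKM, and each overlapped its neighbour in this order. Kcnd2 at 0.282 ± 0.181, Kcnj12 at 0.206 ± 0.241 and Kcne3 at 0.0965 ± 0.0918 FPKM were the lowest and overlapped one another in turn.

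At E11.5 the order in control whole hearts again began with Kcnj5 at 30.2 ± 1.86 FPKM and Kcnh2 at 11.01 ± 0.629 FPKM (SD, n = 3). Kcne1, the auxiliary subunit of the slow delayed rectifier, came next at 8.29 ± 1.58 FPKM, and then Kcnk3, which carries an acid-sensitive background current, at 5.74 ± 0.341 FPKM. No neighbours overlapped from Kcnj5 down to Kcnj3 and Kcnq1, the latter at 2.05 ± 0.0386 FPKM. Kcnq1, Kcne3 and Kcnd2 overlapped in turn, and Kcnj12 was lowest at 0.325 ± 0.130 FPKM. In the right ventricle and outflow tract labelled control, Kcne1 led with 19.6 ± 4.38 FPKM but overlapped Kcnj5 at 17.1 ± 6.54 FPKM. Kcne3 came after these, with 6.70, 18.8 and 4.86 FPKM in the 3 libraries. By the column names the controls are the other 3 libraries of this line, in which Kcnj5 led with 15.7 ± 0.880 FPKM, Kcne1 followed without overlap at 10.8 ± 0.283 and Kcne3 was lower at 1.77 ± 0.295 FPKM. This tissue differs from the whole hearts by dissection, Cre line and sequencing group at once, and these cannot be told apart.

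**Figure D2:**
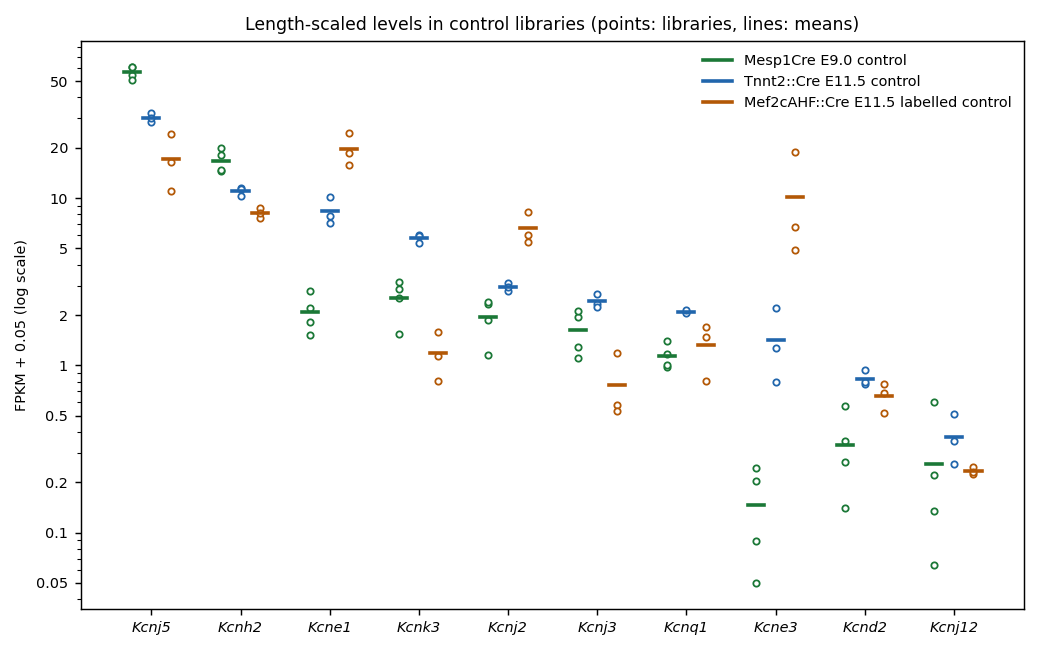
FPKM of the 10 genes in control libraries, on a log axis with 0.05 FPKM added and genes ordered by their mean in E11.5 whole hearts; circles are libraries and lines are group means. Kcnj5 falls from 56.7 FPKM in E9.0 hearts to 30.2 in E11.5 hearts, and Kcne1 goes from 2.03 to 8.29.

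Between E9.0 and E11.5 control hearts, 7 of the 10 genes were higher at the later stage, Kcnj5 and Kcnh2 were lower, and Kcnj12 did not pass the test. Of all 16697 genes tested, 38.3% passed in this comparison. The groups did not overlap for 9 of the 10 genes, against 45.4% of all genes. The median log2 difference was 0.81 for the 10 genes and -0.01 for all genes tested. Stage, Cre line and sequencing group cannot be told apart here. In bulk tissue, fewer cells of a type and less RNA per cell cannot be told apart either. Markers of other cells moved with the stage: 6 of 6 erythroid, 4 of 4 platelet and 4 of 4 epicardial markers were higher at E11.5, and 3 of 4 pacemaker markers were lower. Of the 7 cardiomyocyte markers 2, Myh6 and Ttn, were lower at E11.5, with sums from 25184 to 32257 CPM against 37247 to 48318 CPM at E9.0. Atrial markers divided: of 4 tested, Nppa and Sln were higher at E11.5 and Myl7 was lower, by 1.65-fold (edgeR adjusted p = 0.00123). Ventricular markers divided too: of 3 tested, Myl2 was higher and Irx4 lower at E11.5. Their sums ran from 1376 to 1638 CPM at E11.5 and from 779 to 1202 CPM at E9.0. Of 5 macrophage markers 3 were higher and 0 lower, and of 6 endothelial markers 2 were higher and 1 lower. Summed erythroid markers ran from 3624 to 12882 CPM at E9.0 and from 53656 to 81237 CPM at E11.5, and the part of these cell types in the differences was not tested.

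Among the voltage-gated subunits, Kcnq1, the pore of the slow delayed rectifier, was at 3.01, 4.41, 3.48 and 3.09 CPM at E9.0 and at 6.72, 6.72 and 7.33 CPM at E11.5. Every later library was above every earlier one, and the log2 difference was 0.95 ± 0.21 (SE; edgeR adjusted p = 0.00441). Kcnd2, which encodes a transient outward channel, had 10 to 65 counts per library at E9.0 and 121 to 142 at E11.5, with a log2 difference of 1.50 ± 0.47 (adjusted p = 0.0247). Kcnh2 went the opposite way, from 70.7 to 101 CPM down to 54.1 to 61.9 CPM, a log2 difference of -0.56 ± 0.12 (adjusted p = 0.00414).

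The inward rectifiers divided. Kcnj5 was at 288, 290, 247 and 237 CPM at E9.0 and at 154, 138 and 154 CPM at E11.5, a clear separation with a log2 difference of -0.87 ± 0.09 (adjusted p = 3.71e-05). Its partner in the acetylcholine-gated channel, Kcnj3, was higher at E11.5 by 0.63 ± 0.22 (log2; adjusted p = 0.0394). Kcnj2, the main Kir2 subunit of ventricular cells, was also higher, by 0.66 ± 0.21 (adjusted p = 0.0298). Kcnj12, another Kir2 subunit, had between 1 and 44 counts in the E9.0 libraries and between 21 and 58 at E11.5. These ranges overlapped, and the adjusted p was 0.552. The calls of Kcnj2, Kcnj3 and Kcnd2 were each lost when any 1 of the 3 Tnnt2::Cre controls was left out, except that Kcnj2 stayed past the threshold without control 1 (adjusted p from 0.0524 to 0.120 for those lost). Leaving out Mesp1Cre control 2, 3 or 4 also removed 1 or 2 of these 3 calls. Kcnj2 and Kcnj3 were also lost on log2(FPKM + 0.1) (adjusted p = 0.0811 and 0.0959) and in the fit of all 20 libraries (adjusted p = 0.0601 and 0.0711).

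Kcnk3 was at 10.04, 12.4, 5.77 and 11.1 CPM at E9.0 and at 24.2, 22.1 and 25.5 CPM at E11.5, with a log2 difference of 1.25 ± 0.21 (adjusted p = 0.00076). The auxiliary subunits gave the largest differences among the 10. Kcne1 was at 7.21, 9.07, 5.66 and 4.79 CPM at E9.0 and at 23.8, 26.4 and 36.2 CPM at E11.5. All later libraries lay above all earlier ones, 4.21-fold by the fit (log2 2.07 ± 0.21, adjusted p = 3.01e-05). Kcne3 had 0, 1, 4 and 5 counts at E9.0 and 34, 46 and 80 at E11.5, a log2 difference of 3.85 ± 0.78 (adjusted p = 0.00235) that was 2.92 on log2(FPKM + 0.1).

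Deletion with Mesp1Cre was compared next, at E9.0. Kcne3, which holds KCNQ1 channels open and is best known from epithelia, was the gene that passed the test, and it was higher in mutants. That is 1 of 10 genes higher and 0 lower, while 6.17% of all 15883 genes tested were called higher and 5.29% lower. The groups did not overlap for 2 of the 10, Kcne3 and Kcnj2, against 18.1% of all genes. The median log2 fold change was 0.19 for the 10 genes and 0.00 for all genes tested.

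Kcne3 had 178, 74, 386 and 85 counts in the 4 mutant hearts and 0, 1, 4 and 5 in the 4 controls. In CPM these were 7.51, 2.80, 16.5 and 3.30 in mutants and 0.00, 0.0412, 0.158 and 0.203 in controls. Every mutant lay above every control, and the spread among mutants was wide. The fitted log2 fold change was 6.19 ± 0.78 (SE; adjusted p = 0.000334), and it stayed between 5.47, without mutant 3, and 6.75 when each library was left out in turn. Because the controls hold so few counts, this value depends on how low counts are treated, and it was 5.15 on log2(FPKM + 0.1). Platelet markers moved with it: Pf4 and Ppbp, 2 of the 4 on that list, were higher in mutants, and the summed list ran from 35.4 to 188 CPM in mutants and from 6.02 to 16.6 CPM in controls. In mutants 1 to 4, in order, the sums were 86.7, 56.7, 188 and 35.4 CPM, so mutant 3 had the highest sum and the most Kcne3. Mutant 4 had the lowest sum and slightly more Kcne3 than mutant 2. In controls 1 to 4 the sums were 15.3, 6.02, 15.0 and 16.6 CPM. Gp9, another of the 4, was at 0 in control 2 and above 0 in the other libraries of the line. Erythroid markers ran the other way, with 3 of 6 lower and sums from 1424 to 5565 CPM in mutants against 3624 to 12882 CPM in controls. Of the endothelial markers 2 of 6, Kdr and Pecam1, were higher, with sums from 497 to 581 CPM in mutants against 403 to 472 CPM in controls. Of 7 cardiomyocyte markers 1, Ttn, was higher (1.49-fold, edgeR adjusted p = 0.00782). The cardiomyocyte sums overlapped, from 47468 to 59112 CPM in mutants and from 37247 to 48318 CPM in controls. Of 5 smooth muscle markers 1, Cnn1, was lower (1.37-fold, edgeR adjusted p = 0.00481). Of 3 macrophage markers tested 1, Lyz2, was lower (8.27-fold, edgeR adjusted p = 0.000464). Cd68 and Csf1r had log2 fold changes of 0.81 and 0.24 and did not pass (edgeR adjusted p = 0.0946 and 0.814). The part of any of these cell types in the result was not tested. The sequences just before its transcription starts are shown because Kcne3 changed most of the 10 in this line. The sequences come from RefSeq (GRCm38.p6), which lists 2 starts for Kcne3, and the 250 bases before each were found once each in the mm9 genome, at chr7:107324930-107325179 and chr7:107326943-107327192 on the plus strand. Capitals mark ACGTG, the core recognised by hypoxia-inducible factors, or its reverse complement CACGT.
Kcne3, distal start: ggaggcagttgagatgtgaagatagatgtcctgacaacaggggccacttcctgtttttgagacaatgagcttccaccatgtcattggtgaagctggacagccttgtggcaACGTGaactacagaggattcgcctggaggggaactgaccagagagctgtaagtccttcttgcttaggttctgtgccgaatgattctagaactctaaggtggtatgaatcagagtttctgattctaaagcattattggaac
Kcne3, proximal start: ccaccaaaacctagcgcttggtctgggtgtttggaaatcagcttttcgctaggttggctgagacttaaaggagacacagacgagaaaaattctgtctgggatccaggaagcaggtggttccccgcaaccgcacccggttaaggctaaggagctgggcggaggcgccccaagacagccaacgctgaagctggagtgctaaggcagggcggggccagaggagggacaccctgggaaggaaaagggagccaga

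The distal window holds the core once, 46.8% of its bases are G or C, and its start lies 2027 bases before the annotated gene start. The proximal window has none, is 58.0% G or C and ends 14 bases before the annotated start. The core, on either strand, is present in 16.6% of the 32851 RefSeq windows of this length. A match is a description of letters and not of binding. Windows could be matched for 7 of the 10 genes, and besides Kcne3 the core was found in the Kcnj2 window, where CACGTG reads the same on both strands. The GATA motif AGATAA, the TEAD motif GGAATG and the TATA box TATAAA, searched on both strands and present in 9.99%, 12.6% and 12.4% of all windows, were found in none of the 8 windows of these genes. The starts used for Kcnh2 and Kcnj12 lie inside the annotated genes, at -22013 and -43240 in bases before the annotated start.

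Kcnj2 was at 15.0, 14.9, 34.7 and 15.1 CPM in Mesp1Cre mutants and at 6.40, 13.1, 12.9 and 10.4 CPM in controls. All mutants were above all controls, but the fold change of 0.92 ± 0.30 (log2) did not pass (adjusted p = 0.0653). Mutant 3 stood apart from the other mutants, and of these libraries it also had the most Kcne3 and the highest platelet sum. Without it the log2 fold change was 0.52 (adjusted p = 0.193), and without mutant 2 it passed at 1.05 (adjusted p = 0.0485). It also passed by DESeq2 (adjusted p = 0.00993), in the fit of all 20 libraries (adjusted p = 0.0247) and with no count filter (adjusted p = 0.0471). The window before its start, printed because it is the other window with the core, lies at chr11:110927228-110927477 in mm9 on the plus strand.
Kcnj2: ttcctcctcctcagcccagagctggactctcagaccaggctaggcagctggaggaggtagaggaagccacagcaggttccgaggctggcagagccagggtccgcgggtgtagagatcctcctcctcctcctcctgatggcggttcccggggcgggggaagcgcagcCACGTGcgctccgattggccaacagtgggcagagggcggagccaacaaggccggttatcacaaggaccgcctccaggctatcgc

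Kcnk3 was at 5.95, 7.87, 6.10 and 4.15 CPM in mutants and at 10.04, 12.4, 5.77 and 11.1 CPM in controls, where control 3 lay inside the mutant range. Its log2 fold change was -0.69 ± 0.26 (adjusted p = 0.108). Without control 3 it was -0.87 and passed (adjusted p = 0.0403), and it passed in the fit of all 20 libraries (adjusted p = 0.0327). Kcne1 had a log2 fold change of 0.42 ± 0.23 (adjusted p = 0.267), and Kcnj5 one of 0.18 ± 0.08 (adjusted p = 0.192). Kcnj5 passed on log2(FPKM + 0.1), at 0.34 (adjusted p = 0.0289), where the median of all genes was itself at 0.15. Kcnq1, Kcnh2, Kcnd2, Kcnj3 and Kcnj12 had log2 values between -0.09 and 0.28, and their adjusted p-values ran from 0.561 to 0.987. Kcnj12 ranged from 0 to 31 counts in mutants and from 1 to 44 in controls, so the spread within each group was wide.

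With Tnnt2::Cre, in E11.5 whole hearts, 0 of the 10 genes passed by edgeR, and 0.293% of all 17045 genes tested did. At an unadjusted p under 0.05 there were 4 of the 10, namely Kcnj12, Kcnk3, Kcne3 and Kcne1, against 2034 of all 17045 genes. DESeq2 called 3 of them, Kcnj12, Kcnk3 and Kcne3, and 368 of all genes. The groups did not overlap for 4 genes, Kcnj12, Kcnk3, Kcne3 and Kcnq1, against 16.9% of all genes. The median log2 fold change was 0.01 for the 10 genes and 0.00 for all genes. Mutant 1 weighed heavily in this line. Without it 4 of the 10 genes passed, Kcnj12 at -2.44, Kcnk3 at -0.60, Kcne3 at 2.25 and Kcne1 at 0.64 on the log2 scale, and the count over all genes went from 50 to 896. Its summed platelet markers were 753 CPM, against 155 and 158 in mutants 2 and 3 and 176 to 328 in controls. Summed erythroid markers ran from 10733 to 72536 CPM in mutants and from 53656 to 81237 CPM in controls, with 0 of 6 past the test, and their part was not tested.

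Kcnj12 had 4, 5 and 8 counts in mutants and 58, 31 and 21 in controls. All mutants lay below all controls, with a log2 fold change of -2.67 ± 0.47 that missed the threshold (adjusted p = 0.0766). DESeq2 gave -2.70 (adjusted p = 0.00237), and the fit with no count filter gave -2.67 (adjusted p = 0.0346). On log2(FPKM + 0.1) it was -1.42 (adjusted p = 0.162), in the fit of all 20 libraries the adjusted p was 0.278, and without control 1 it was 0.331. Kcnk3 was at 11.3, 15.3 and 16.2 CPM in mutants and at 24.2, 22.1 and 25.5 CPM in controls. These ranges were far apart for their width, with a log2 fold change of -0.74 ± 0.15 (adjusted p = 0.114; DESeq2 adjusted p = 0.00104). Kcnq1 was at 3.90, 6.21 and 5.43 CPM in mutants and 6.72, 6.72 and 7.33 CPM in controls, a log2 fold change of -0.41 ± 0.19 (adjusted p = 0.447).

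Kcne3 was at 2.92, 10.01 and 4.26 CPM in Tnnt2::Cre mutants and at 0.799, 1.33 and 2.47 CPM in controls. Every mutant was above every control, with a log2 fold change of 1.92 ± 0.53 (adjusted p = 0.231; DESeq2 adjusted p = 0.00162). Without mutant 2, the library with the most Kcne3, it was 1.24 (adjusted p = 0.381). In this line the platelet list did not separate the groups: the mutant with the highest Kcne3 had the lowest platelet sum of the 6 libraries, 155 CPM. Kcne1 was at 33.4, 44.9 and 44.3 CPM in mutants and 23.8, 26.4 and 36.2 CPM in controls, overlapping through control 3, with a log2 fold change of 0.51 ± 0.18 (adjusted p = 0.327). Kcnj2, Kcnj3, Kcnj5, Kcnh2 and Kcnd2 lay between -0.16 and 0.33 on the log2 scale, with adjusted p-values from 0.538 to 0.928.

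**Figure D3:**
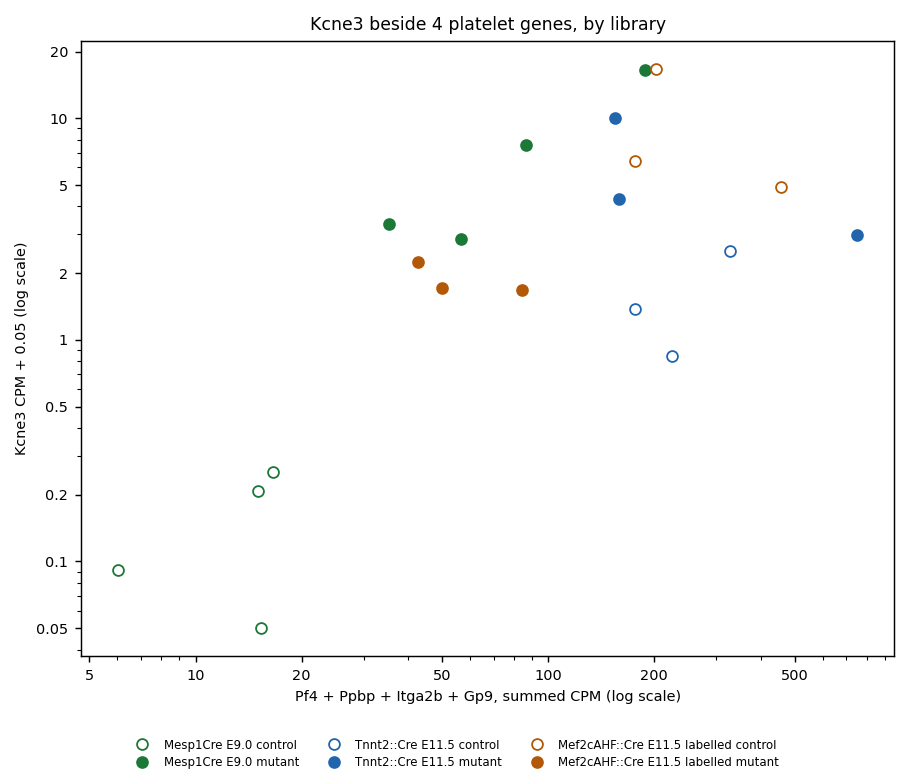
Kcne3 CPM (0.05 added) against the summed CPM of the platelet genes Pf4, Ppbp, Itga2b and Gp9 in each of the 20 libraries, both on log axes; open circles are controls and filled circles mutants. In the Mesp1Cre and Mef2cAHF::Cre lines the group with more Kcne3 also has the higher platelet sums, whereas in Tnnt2::Cre the mutant with 10.01 CPM of Kcne3 has a sum of 155 CPM, below every control.

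The right ventricle and outflow tract of the Mef2cAHF::Cre line gave calls for 4 of the 10 genes, and 2.85% of all 16920 genes tested passed. By the titles, Kcnj3 and Kcnk3 were higher and Kcne1 and Kcne3 lower in mutants. By the column names each of these directions is the opposite, with the same sizes and adjusted p-values. The groups did not overlap for 9 of the 10 genes, all but Kcnj5, and the share over all genes was 23.9%. By the titles the median log2 fold change was 0.39 for the 10 genes and -0.01 for all genes. For Kcnk3 the SD was 0.166 CPM among libraries labelled mutant and 1.37 among those labelled control, while for Kcnj3 it was 2.01 and 1.79 CPM. Leaving out any 1 of the libraries labelled mutant left Kcnk3 as the 1 gene past the threshold, and without control 3 Kcnj3 was lost (adjusted p = 0.087).

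Kcnk3 was at 14.6, 14.4 and 14.3 CPM in libraries labelled mutant and at 5.52, 3.66 and 2.83 CPM in those labelled control. The groups were well apart, with a log2 fold change by the titles of 1.85 ± 0.21 (3.60-fold; adjusted p = 0.0037). Kcnk3 kept its call without each library in turn, at 1.66 to 2.15. Kcnj3 was at 12.1, 8.18 and 9.29 CPM in libraries labelled mutant and 5.55, 2.43 and 2.49 CPM in those labelled control, with a log2 fold change of 1.49 ± 0.31 (adjusted p = 0.0396) that did not pass on log2(FPKM + 0.1) (1.32, adjusted p = 0.08). Of its 5215 exonic bases, 1621 also belong to Gm17595, a noncoding gene on the opposite strand. Whether counting used strand is not given in the sources used here, so reads from those bases cannot be told apart.

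The window before Kcnj3 is printed for comparison, as Kcnj3 was called in this line and has no ACGTG core. It lies at chr2:55288131-55288380 in mm9 on the plus strand, directly before the annotated start, and is 58.4% G or C.
Kcnj3: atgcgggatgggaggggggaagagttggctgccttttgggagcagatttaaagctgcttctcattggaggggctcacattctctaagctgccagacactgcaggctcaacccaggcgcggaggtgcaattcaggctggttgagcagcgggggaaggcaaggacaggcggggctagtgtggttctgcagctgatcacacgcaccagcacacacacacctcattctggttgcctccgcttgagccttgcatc

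Kcne1 was at 34.5, 34.9 and 35.4 CPM in libraries labelled mutant and at 55.1, 67.4 and 48.8 CPM in those labelled control, a log2 fold change by the titles of -0.71 ± 0.11 (adjusted p = 0.0169). It was lost in the fit of all 20 libraries (adjusted p = 0.125). Kcne3 was at 1.67, 2.20 and 1.62 CPM and at 6.37, 16.7 and 4.84 CPM, with no overlap and a log2 fold change of -2.35 ± 0.44 (adjusted p = 0.03). Without the library labelled control 2 it was -1.61 and still passed (adjusted p = 0.00693). On log2(FPKM + 0.1) its adjusted p was 0.0577, and in the fit of all 20 libraries 0.122. Between the groups platelet markers moved with Kcne3 here too: Pf4, Ppbp and Itga2b, 3 of the 4, were lower in libraries labelled mutant, and the sums were 42.9 to 84.1 CPM against 177 to 458 CPM. Within each group they did not, as the library with the highest platelet sum had the least Kcne3. These were mutant 3, with a sum of 84.1 and 1.62 CPM of Kcne3, and control 3, with 458 and 4.84 CPM, as labelled. Hba-a1, 1 of 6 erythroid markers, and Hcn4, 1 of 3 tested pacemaker markers, were higher in libraries labelled mutant. Tbx3 and Isl1, also tested as pacemaker markers, had log2 fold changes by the titles of -0.39 and -0.47 and did not pass. Pacemaker sums overlapped, from 29.0 to 35.8 CPM in libraries labelled mutant and from 31.5 to 44.0 CPM in those labelled control. Of 4 atrial and 3 ventricular markers 0 passed. Atrial sums overlapped, from 768 to 898 CPM in libraries labelled mutant and from 572 to 776 CPM in those labelled control. Ventricular sums did not overlap, at 1196 to 1334 CPM against 754 to 1101 CPM. The part of any of these cell types was not tested.

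The other 6 genes of the Mef2cAHF::Cre line missed the threshold. By the titles, Kcnj12 had a log2 fold change of 0.90 ± 0.30 (adjusted p = 0.158) from 24, 26 and 32 counts in libraries labelled mutant and 15, 12 and 13 in those labelled control. Kcnq1 had 0.67 ± 0.23 (adjusted p = 0.168), Kcnd2 0.49 ± 0.19 (adjusted p = 0.219) and Kcnh2 0.29 ± 0.09 (adjusted p = 0.122). Kcnj2 had -0.42 ± 0.12 (adjusted p = 0.115), and passed by DESeq2 (adjusted p = 0.0403), with no count filter (adjusted p = 0.0174) and without control 1 (adjusted p = 0.0485). Kcnj5 was near equal in the groups, at -0.01 ± 0.25 (adjusted p = 0.991), though its libraries labelled control ran from 43.2 to 106 CPM.

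**Figure D4:**
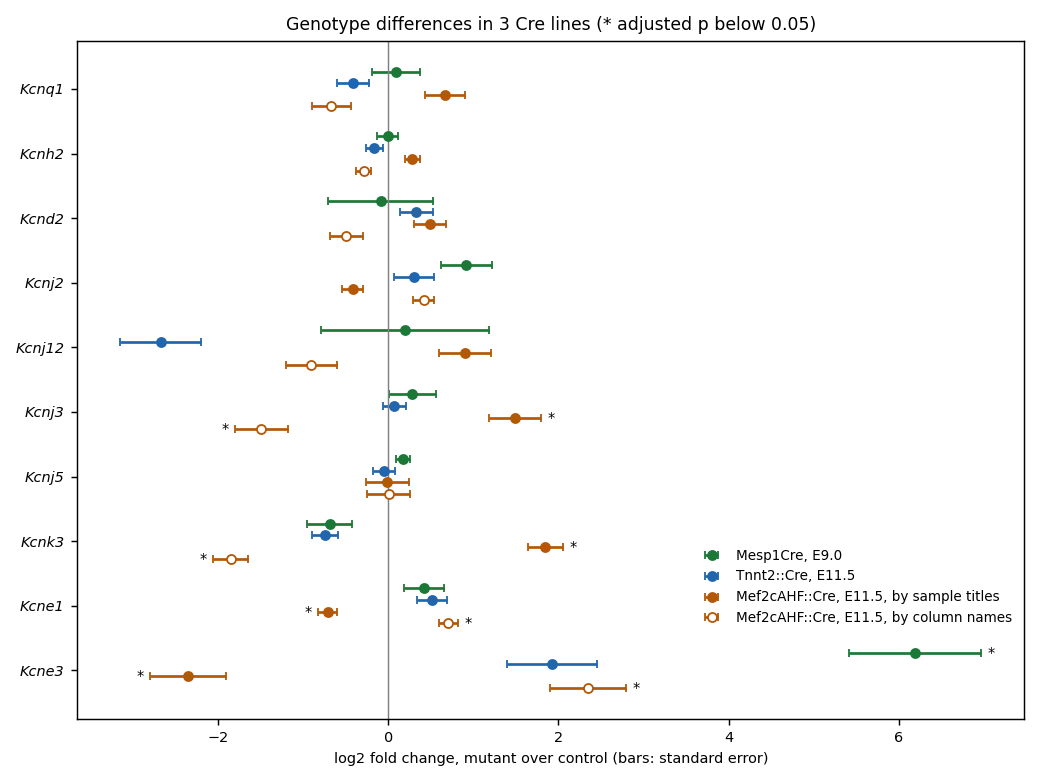
Log2 fold change of mutant over control for the 10 genes in each Cre line, with bars of 1 standard error and an asterisk where the edgeR adjusted p is below 0.05; open circles show the Mef2cAHF::Cre line read by its column names. In the Mef2cAHF::Cre line Kcnk3 and Kcnj3 lie above 0 and Kcne1 and Kcne3 below 0 when read by the titles, and each of them on the other side when read by the column names.

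Whether the genotype effect differed between lines was tested in 1 model of all 20 libraries. The Tnnt2::Cre effect minus the Mesp1Cre effect passed for Kcne3 alone of the 10, at -4.27 ± 1.07 on the log2 scale (adjusted p = 0.0363), and 3.04% of all 18391 genes passed. Within lines Kcne3 passed in Mesp1Cre, at 6.19 over controls of 0 to 5 counts, and did not pass in Tnnt2::Cre, at 1.92. Without Mesp1Cre mutant 3 the difference was -3.55, and without Tnnt2::Cre mutant 2 it was -4.95. The call was lost in 8 of the 14 fits that left out a library, with adjusted p-values up to 0.0952: without Tnnt2::Cre mutants 1 or 3, Tnnt2::Cre controls 2 or 3, Mesp1Cre controls 1 or 2, or Mesp1Cre mutants 1 or 3. Kcnj12 had a difference of -2.83 ± 1.21 (adjusted p = 0.202), and Kcnk3 one of -0.04 ± 0.34 (adjusted p = 0.972).

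At the same stage, the Mef2cAHF::Cre effect minus the Tnnt2::Cre effect depended on the reading of the labels. By the titles 3 of the 10 genes passed, and 3.19% of all genes did. Kcnk3 had a difference of 2.60 ± 0.36 (adjusted p = 0.000323), Kcne3 one of -4.26 ± 0.92 (adjusted p = 0.0128) and Kcne1 one of -1.21 ± 0.28 (adjusted p = 0.0201). The Kcne3 difference was -3.58 without Tnnt2::Cre mutant 2 and -3.53 without the library labelled control 2, and passed in both. The call of Kcne1 was lost in 7 of 12 fits without a library (adjusted p up to 0.0652): Tnnt2::Cre mutants 2 or 3, Tnnt2::Cre controls 1 or 2, the libraries labelled mutant 1 or 2, or the library labelled control 2. Kcnj3, at 1.42 ± 0.44, missed the threshold (adjusted p = 0.0889) but passed without the library labelled control 1 (adjusted p = 0.016). By the column names 0 of the 10 genes passed by edgeR, and 0% of all genes did, with 472 genes at an unadjusted p under 0.05. Under that reading Kcnj3 differed by -1.56 ± 0.44 and Kcnk3 by -1.10 ± 0.36 (unadjusted p = 0.0021 and 0.00612), while Kcne1 and Kcne3 differed by 0.20 ± 0.28 and 0.43 ± 0.90. The contrasts between lines reuse the libraries of the comparisons within lines, and the comparison of stages shares its controls with them, so their values are only set side by side.

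Other potassium channel genes were taken as a list of 85 symbols of the Kcn families with Abcc8, Abcc9, Dpp6 and Dpp10. In Mesp1Cre hearts 48 of them were tested, 7 were higher and 1 was lower in mutants. Of all 15883 genes tested there, 6.17% were called higher and 5.29% lower. Dpp6, an auxiliary subunit of Kv4 channels such as Kcnd2, averaged 23.8 ± 6.14 CPM (SD) over the 4 mutants and 1.37 ± 0.722 over the 4 controls and rose by 4.15 ± 0.35 on the log2 scale (adjusted p = 1.88e-05). Abcc8, the sulfonylurea receptor of ATP-sensitive channels, rose by 1.66 ± 0.39 (adjusted p = 0.0161). Kcnj6, a G protein-gated rectifier related to Kcnj3, fell by 0.90 ± 0.19 (adjusted p = 0.00971). In Tnnt2::Cre hearts 0 of 54 passed by edgeR, with 12 at an unadjusted p under 0.05, against 2034 of all 17045 genes. In the Mef2cAHF::Cre line 1 of 54 passed, against 2.85% of all 16920 genes tested. This was Kcnj15, an inward rectifier, at 1.17 ± 0.19 by the titles (adjusted p = 0.0185) and the opposite by the column names.

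Between stages, 9 of 54 tested genes of this list were higher and 8 lower at E11.5, where 38.3% of all genes passed. Kcnn4, the calcium-activated channel of red cells and lymphocytes, was higher by 3.21 ± 0.31 (log2; adjusted p = 2.05e-05), moving with the erythroid markers given above. Kcna1, a Kv1 channel, was higher by 2.93 ± 0.23 (adjusted p = 5.06e-06). Kcnip3, a member of the KChIP family that binds Kv4 channels, was lower by 2.65 ± 0.30 (adjusted p = 5.41e-05), Kcnmb1, the smooth muscle subunit of the BK channel, by 1.85 ± 0.21 (adjusted p = 5.54e-05), and Kcnh7, a relative of Kcnh2, by 1.51 ± 0.13 (adjusted p = 1.15e-05). Smooth muscle markers moved with Kcnmb1, with 3 of 5 lower and 1 higher at E11.5. The median log2 difference was -0.01 over the 54 genes, and to 2 decimals the same over all genes. Across lines, Kcng1, a modifier subunit of Kv2 channels, was the 1 gene of 60 tested whose genotype effect differed, lower in Tnnt2::Cre than in Mesp1Cre by 2.12 ± 0.52 (adjusted p = 0.0311) and higher in Mef2cAHF::Cre than in Tnnt2::Cre by 2.60 ± 0.60 read by the titles (adjusted p = 0.0195). Of all 18391 genes tested, 3.04% passed for Tnnt2::Cre minus Mesp1Cre and 3.19% for Mef2cAHF::Cre minus Tnnt2::Cre by the titles. By the column names 0 of 60 passed by edgeR, with 2 at an unadjusted p under 0.05.

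The genes most like each of the 10 over the 20 libraries were ranked by Pearson's r of log2 CPM among 12647 genes. The libraries share 3 sequencing groups and 2 stages, so these values describe the series and carry no test. Kcnj5 was most like Myl7, the atrial myosin light chain (r = 0.96), and Kcnh2 most like Itga6, an integrin (r = 0.97). Kcne1 was nearest to Bicc1 (r = 0.97), and Kcne3 to Rgs11 (r = 0.93) and Vldlr, a lipoprotein receptor (r = 0.91). Kcnj3 was nearest to Cmya5, a muscle protein of the Z-disc region (r = 0.87), Kcnq1 to Thra, a thyroid hormone receptor (r = 0.88), Kcnk3 to Gstm2 (r = 0.92), Kcnd2 to Acot7 (r = 0.93) and Kcnj2 to Sema6d (r = 0.90). Kcnj12, the gene with the fewest reads, was nearest to AL596204.1 (r = 0.70).

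By the mm9 annotation, all 10 genes are protein-coding, on 7 chromosomes. Kcne3 spans chr7:107327207-107333374 and Kcnq1 chr7:150293159-150612955, both on the plus strand. Kcne1 lies at chr16:92346246-92359713 on the minus strand and Kcnk3 at chr5:30890543-30927643 on the plus strand. Kcnj12, at chr11:60836066-60884633, and Kcnj2, at chr11:110927478-110938135, share a chromosome and the plus strand. Kcnh2, on the minus strand, lies at chr5:23825407-23857422, Kcnd2 at chr6:21165503-21679805, Kcnj3 at chr2:55288381-55450556 and Kcnj5, on the minus strand, at chr9:32122368-32151822. Kcnq1ot1, the noncoding RNA antisense to Kcnq1, was not analysed here. The strand of counting is unknown, and whether any Kcnq1ot1 reads were counted for Kcnq1 was not tested. Besides Kcnj3, 0 of the 10 share exonic bases with another annotated gene. Sequences of 50 bases also found in protein-coding transcripts of other genes made up 0.266% of Kcnk3 and 0.167% of Kcnj2, and none of the other 8 had any. Noncoding transcripts, such as that of Gm17595, were not searched.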

How the data were processed

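Per the labels, total RNA of embryonic hearts was made into libraries with NuGEN kits, whereas the study's methods name an Illumina TruSeq kit, and sequenced on an Illumina HiSeq instrument. The authors aligned reads to mouse mm9 (TopHat2 2.0.8b). The deposited counts are labelled as computed by USeq 8.6.4, whereas the study's methods name FeatureCounts for this step and USeq for differential expression. The strand setting is not given in the sources used here. The deposited table holds counts per gene, which were tested, and FPKM, which the authors computed from those counts and which served for levels between genes. A further 20 columns of variance-corrected counts were not used.

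Groups follow the sample titles. CPM used edgeR 4.0.16 TMM scaling over the 20 libraries. Each comparison was fitted on its own libraries over all genes left by filterByExpr with the edgeR quasi-likelihood F test (R 4.3.3), Benjamini-Hochberg adjusted, threshold 0.05. Differences between lines were contrasts in 1 fit of all 20 libraries. SE is the fold change divided by the square root of F. Alternatives were DESeq2 1.42.0, its size factors, no count filter, limma 3.58.1 on log2(FPKM + 0.1), a replicate block, the fit of all libraries, thinning to equal depth, each library left out and the Mef2cAHF::Cre column names. The test was checked on simulated counts.

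The 10 genes and all lists were chosen with earlier results of these data known. Of the other potassium channel genes, up to 3 rises and 3 falls per comparison with mean log2 CPM of at least 1 were named (1 such gene is not reported here), and likeness used genes above the same level. Libraries held 21727258 counts or more, and precision also rests on the spread between libraries, which was 8.74 to 213 times the sampling variance. Coordinates are mm9, 1-based.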

Additional observations from a re-analysis of the deposited data

Results flagged for a closer look

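Kcnj2 stood at 34.7 CPM in Mesp1Cre mutant 3, while the other 3 mutants lay between 14.9 and 15.1 CPM, a gap wider than the 95% Dixon limit for 4 samples allows. Of the 20 groups of 4 libraries tested in this way (10 genes in 2 groups) it was the 1 that stood apart, and chance gives about 1 in 20.

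The genotype effect of Kcne3 differed between lines by a test of the difference itself (edgeR): Tnnt2::Cre minus Mesp1Cre was -4.27 on the log2 scale. Mef2cAHF::Cre minus Tnnt2::Cre, read by the titles, was -1.21 for Kcne1, -4.26 for Kcne3 and 2.60 for Kcnk3. Read by the column names of the same libraries, 0 of these 3 passed.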

How the results depend on the processing

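Of 850 values of the 10 genes under all alternatives, 731 kept their direction and their side of the threshold, 45 lost a call, 23 gained one and 51 changed direction. Without the fits that left out a library or used the column names, these were 271, 8, 15 and 6 of 300. The cause of the changes below was not tested. In Mesp1Cre the 1 gene of the 10 called became 2 with DESeq2, with no count filter, on FPKM and with the replicate block, and 3 in the fit of all 20 libraries, where the count over all genes went from 1821 to 3593. In Mef2cAHF::Cre 4 became 2 on FPKM and in the fit of all libraries, and 482 over all genes became 1103 with DESeq2, 1311 with no filter, 291 on FPKM and 129 in the fit of all libraries. In Tnnt2::Cre 0 became 3 with DESeq2 and 1 with no filter, and 50 over all genes became 368, 120, 22 on FPKM, 82 in the fit of all libraries and 28 with the block. For Tnnt2::Cre minus Mesp1Cre, 559 over all genes became 1242 with DESeq2. For Mef2cAHF::Cre minus Tnnt2::Cre, 3 became 5 with DESeq2 and 0 by the column names, and 586 over all genes became 1035 and 0. Between stages 9 called became 7 on FPKM and in the fit of all libraries, and 6 to 9 with libraries left out. Over all genes the 6401 calls between stages became 6238 to 7280 under the other alternatives and 4758 to 6156 with libraries left out. Libraries with the same replicate number were not paired by it: their deviations correlated at -0.036 to 0.177, not above 0.1 for every number in any line, and not every library was most like its own number. The block gave 1384, 517 and 28 calls over all genes in Mesp1Cre, Mef2cAHF::Cre and Tnnt2::Cre. Left out in turn, libraries gave 1 to 2 calls among the 10 and 1052 to 2161 over all genes in Mesp1Cre, 1 to 5 and 75 to 662 in Mef2cAHF::Cre, 0 to 4 and 4 to 896 in Tnnt2::Cre, 0 to 1 and 167 to 1037 for Tnnt2::Cre minus Mesp1Cre, and 295 to 1031 over all genes for Mef2cAHF::Cre minus Tnnt2::Cre. Direction changed for Kcnh2 in Mesp1Cre (0.16 on FPKM, 0.0055 with the block), Kcnd2 there (0.0588 and 0.0348), Kcnj5 in Mef2cAHF::Cre (0.0779 with the block) and Kcnj5 in Tnnt2::Cre (0.058 on FPKM), all uncalled. The FPKM scale moved the median of all genes by 0.15, -0.13 and 0.11 in Mesp1Cre, Mef2cAHF::Cre and Tnnt2::Cre. With libraries left out, ranges crossing 0 were -0.0808 to 0.0944 for Kcnh2, -0.41 to 0.39 for Kcnd2, -0.20 to 1.40 for Kcnj12 and -0.0668 to 0.23 for Kcnq1 in Mesp1Cre, -0.27 to 0.36 for Kcnj5 in Mef2cAHF::Cre, and -0.19 to 0.0584 for Kcnj5, -0.0062 to 0.53 for Kcnj2 and -0.015 to 0.17 for Kcnj3 in Tnnt2::Cre. For Tnnt2::Cre minus Mesp1Cre they were -0.18 to 0.14 for Kcnk3, -0.0773 to 0.30 for Kcne1 and -0.0518 to 0.78 for Kcnd2, and for Mef2cAHF::Cre minus Tnnt2::Cre -0.23 to 0.40 for Kcnj5. By the column names the Mef2cAHF::Cre effects were 0.71 for Kcne1, 2.35 for Kcne3, 0.42 for Kcnj2, -1.49 for Kcnj3, 0.0084 for Kcnj5, -0.90 for Kcnj12, -0.67 for Kcnq1, -0.29 for Kcnh2, -0.49 for Kcnd2 and -1.85 for Kcnk3, and minus Tnnt2::Cre 0.20 for Kcne1, 0.43 for Kcne3, 0.12 for Kcnj2, -1.56 for Kcnj3, -0.25 for Kcnq1, -0.12 for Kcnh2, -0.82 for Kcnd2 and -1.10 for Kcnk3. DESeq2 gave Kcnj12 in Mesp1Cre no adjusted p. Depth limits Kcnj12 and, in E9.0 controls, Kcne3, each with a few counts in some libraries.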
